A study of Homo sapiens with 16 samples.

Results

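Expression of 9 genes was followed that encode serine proteases tethered to the outer face of the cell membrane and the Kunitz-type inhibitors that restrain them. The genes were chosen by name, as TMPRSS2, HPN, TMPRSS4, TMPRSS11D, TMPRSS11E, ST14, PRSS8, SPINT1 and SPINT2, and all 9 were measured, each on 1 row, among 20166 gene symbols. RNA came from RWPE1, an established line of non-tumour human prostate epithelium immortalised with papillomavirus genes, in 16 poly-A libraries. Of these, 4 carry the label of a mutant overexpression construct named for the amino acid change T164A, 6 that of the corresponding wild-type overexpression construct, and 6 that of the empty vector, an altered pTRIPZ, which serves as the control. The labels do not say whether a group is a clone or a pool of transduced cells, whether its libraries are separate cultures, or how long the constructs were expressed.

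Type II transmembrane serine proteases are held in the membrane by a segment near their N terminus, are made as inactive zymogens, and are switched on by a cut before the catalytic domain. In polarised epithelium, matriptase (encoded by ST14) and the lipid-anchored prostasin (PRSS8) activate each other, and HAI-1 (SPINT1) and HAI-2 (SPINT2) are the membrane-bound inhibitors that hold both in check. In the prostate, TMPRSS2 is an androgen-regulated luminal gene whose promoter is joined to ETS factor genes in many tumours, and hepsin (HPN) is a protease known for its high level in prostate cancer.

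Levels are given as the deposited log2 values. Libraries held an estimated 12300000 to 19200000 reads, and 3 reads, taken as the limit of detection, correspond to 2.30 on that scale. Vector replicate 5, wild-type replicate 14 and T164A replicate 93 stood apart from the other libraries of their groups, while vector replicates 1 and 2 and vector replicates 3, 4 and 6 formed close sets. Vector replicate 5 was part of neither set, but it lay closer to vector replicates 1, 2 and 4 than the sets lay to each other. All 10 basal epithelial markers lay above the level of 3 reads in every group mean, with a log2 summed level of 16.83 to 17.03 in T164A, 17.19 to 17.66 in wild type and 17.86 to 18.11 in vector libraries. Against vector libraries, 1 of them was called higher and 9 lower in wild type, and 1 higher and 7 lower in T164A. Their median changes were -0.53 and -1.44. All 13 squamous differentiation markers were also above the level of 3 reads in wild type and vector, but LOR, DSG1 and CRNN were below it in T164A, where all 13 were called lower than in vector libraries. Of all genes, 24.5% were called lower in wild type and 27.2% in T164A against vector. In a bulk sample, fewer cells of a type and less RNA per cell cannot be told apart.

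In the libraries of the wild-type construct, TMPRSS2 and HPN stood at high levels that the vector libraries did not approach, while TMPRSS4, TMPRSS11D and SPINT1 fell. Of the 9 genes, 2 were called higher and 3 lower than in vector libraries (limma, Benjamini-Hochberg adjusted p below 0.05 over all genes), where 45.5% of all 20166 genes were called, 21% higher and 24.5% lower. The groups did not overlap for the same 5 genes, where 29.4% of all genes did not overlap, 14.6% being higher and 14.8% lower. The fitted change of TMPRSS2 ranked 9 from the top among all genes. At the other end, TMPRSS11D had the sixth most negative change, at rank 6 from the bottom.

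In the libraries labelled T164A, the group was lower almost throughout. Of the 9 genes, 8 fell and 0 rose against vector libraries (limma, and likewise 0 rises at an unadjusted p below 0.05), against a background of 64.4% called, 27.2% lower and 37.1% higher. The groups did not overlap for 7 of them, each lower in T164A, where 55.5% of all genes did not overlap, 22.4% being lower and 33.1% higher. The median change of the 9 was -1.69, with a median over all genes of 0.11. Against wild type, all 9 fell and 0 rose (0 at an unadjusted p below 0.05 as well), against a background of 61.8% called, 26.7% lower and 35.1% higher. The groups did not overlap for any of the 9, where 52.4% of all genes did not overlap, 21.2% being lower and 31.2% higher. The 3 comparisons share libraries, both vector comparisons the same vector libraries, so they are not independent of each other.

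**Figure D1:**
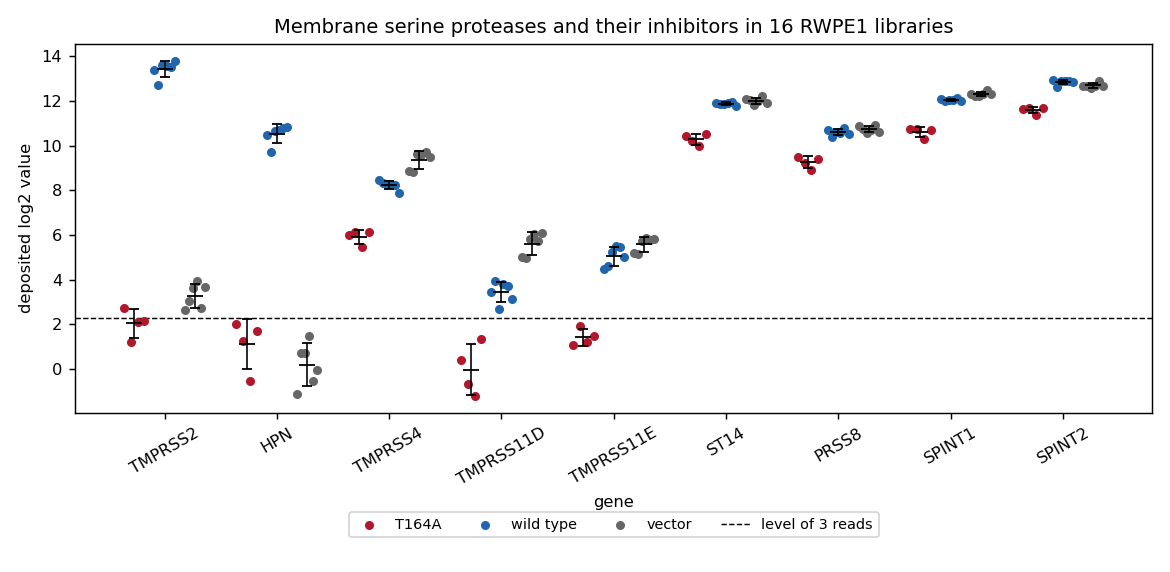
Deposited log2 value of each gene in every library (points), with group mean and SD (bars), for T164A (4 libraries), wild type (6) and vector (6). The dashed line marks the level of 3 reads at 2.30. TMPRSS2 and HPN are high in wild type and near or below the line in the other groups, and ST14, PRSS8, SPINT1 and SPINT2 are lowest in T164A.

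TMPRSS2 was at 2.73, 1.2, 2.08 and 2.14 in the T164A libraries, at 12.72 at the lowest, 13.52 at the median and 13.80 at the highest in wild type, and at 2.63, 3.34 and 3.95 in vector libraries. Every wild-type library lay far above every other library. The wild-type mean of 13.42 ± 0.37 (SD, n = 6) exceeded the vector mean of 3.27 ± 0.55 (SD, n = 6) by 10.15 (SE 0.23, limma adjusted p = 1.33e-21), or 1138-fold. In estimated reads, that is 8847 to 13300 per wild-type library and 3.86 to 15.2 per vector library. T164A libraries averaged 2.04 ± 0.63 (SD, n = 4), below the level of 3 reads, and were called at least 1.96-fold lower than vector libraries (fitted change -1.23, SE 0.26, limma adjusted p = 0.000153). The groups overlapped there, with T164A replicate 91 above vector replicates 1 and 5, and the fitted change was -0.76 (adjusted p = 0.0139) without vector replicates 3, 4 and 6. Against wild type, T164A was lower by at least 2229-fold (limma adjusted p = 6.67e-22).

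HPN was likewise high in wild type alone. It was at 2.0, 1.26, -0.53 and 1.69 in T164A libraries, at 9.71 at the lowest, 10.67 at the median and 10.83 at the highest in wild type, and at -1.13, 0.33 and 1.47 in vector libraries. No T164A or vector library reached the level of 3 reads. Wild type, at 10.53 ± 0.42 (SD, n = 6), was at least 299.6-fold above that level, and so above the vector (limma adjusted p = 7.33e-17) and T164A (limma adjusted p = 1.02e-15). No fold is given between T164A and vector, where both means were below it and hepsin transcript was not detectable at this depth (adjusted p = 0.0787). That difference was called under array weights and without T164A replicate 93 or vector replicate 4.

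Markers of prostate luminal cells moved with these 2 protease genes. Of 13 luminal markers, 13 rose and 0 fell in wild type against vector libraries (limma, 0 falls at an unadjusted p below 0.05 too), and their log2 summed level was 15.61 to 16.63 in wild type and 10.60 to 11.39 in vector libraries, where the means of KLK3, KLK2, KLK4 and TRPM8 were below the level of 3 reads. Of 8 Y-linked genes, 7 rose in wild type, with a summed level of 11.91 to 12.88 against 5.30 to 5.82 in vector libraries, where 7 means were below that level. In T164A, 8 luminal markers rose and 2 fell against vector, and 1 rose and 12 fell against wild type, with a log2 summed level of 11.96 to 12.05. The T164A level of the Y-linked genes was 2.91 to 4.21, and 7 of the 8 means were below the level of 3 reads. Of 11 measured fibroblast, endothelial and leukocyte markers, 2 rose and 3 fell in wild type against vector. Over all genes, 21% were called higher and 24.5% lower in wild type against vector. In T164A, 37.1% were called higher and 27.2% lower against vector, and 35.1% higher and 26.7% lower against wild type. The part of these marker lists in the rise of TMPRSS2 and HPN was not tested.

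KLK3, which encodes prostate-specific antigen, was singled out with KLK2 after their values were seen. It was at 0.72 in T164A, 15.11 in wild type and 2.14 in vector libraries on average, below the level of 3 reads outside wild type.

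Among the wild-type libraries, TMPRSS2, HPN and the kallikrein genes were lowest and highest in the same ones. Replicate 14 was the lowest for each, below the group mean by -0.70 for TMPRSS2, -0.81 for HPN, -0.75 for KLK3 and -0.75 for KLK2. Replicate 18 was the highest for each, at 0.37, 0.30, 0.39 and 0.37 above it. The difference between HPN and TMPRSS2 within a library had an SD of 0.12 in wild type, where the genes themselves had SDs of 0.42 and 0.37. Leaving out any 1 library kept the TMPRSS2 change of wild type against vector between 10.02 and 10.29.

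**Figure D2:**
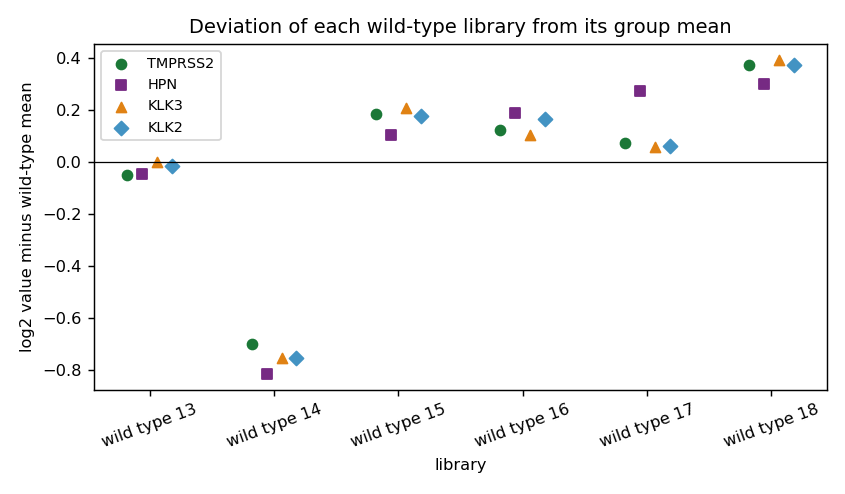
Log2 value minus the wild-type group mean for TMPRSS2, HPN, KLK3 and KLK2 in each of the 6 wild-type libraries. All 4 genes are lowest in replicate 14 and highest in replicate 18, from -0.81 to -0.70 in replicate 14 and from 0.30 to 0.39 in replicate 18.

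RefSeq promoter windows (GRCh38.p14) were matched for 4 of the 9 genes, HPN, SPINT1, TMPRSS11D and TMPRSS11E; the other genes are TMPRSS2, TMPRSS4, ST14, PRSS8 and SPINT2. The 250 bases before the start are printed for HPN, which was high in wild type alone, for SPINT1, which was high in every library and has 2 listed starts, and for the TMPRSS11 genes, which were low in T164A. Capitals mark matches, on either strand, to GGGCGG (the GC box, found in 42.6% of 35116 such windows), CACCC (54.7%), TATAAA (the TATA box, 10.7%), TGANTCA (AP-1, 6.57%), AGAACA (a steroid hormone response motif, 12.4%) or TGTTTAC (forkhead factors, 2.98%).
HPN, chr19:35041471-35041720, plus strand: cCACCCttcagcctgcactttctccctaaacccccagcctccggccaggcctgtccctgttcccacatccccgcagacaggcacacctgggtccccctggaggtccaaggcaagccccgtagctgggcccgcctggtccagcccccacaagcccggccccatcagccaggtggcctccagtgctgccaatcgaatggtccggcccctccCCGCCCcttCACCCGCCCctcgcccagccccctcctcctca
SPINT1, chr15:40843798-40844047, plus strand: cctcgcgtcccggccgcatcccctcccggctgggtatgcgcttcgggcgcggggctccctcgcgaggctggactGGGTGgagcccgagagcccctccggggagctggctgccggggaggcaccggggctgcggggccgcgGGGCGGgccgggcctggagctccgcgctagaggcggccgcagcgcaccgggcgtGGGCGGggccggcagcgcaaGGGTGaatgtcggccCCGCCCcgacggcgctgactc
SPINT1, chr15:40844227-40844476, plus strand: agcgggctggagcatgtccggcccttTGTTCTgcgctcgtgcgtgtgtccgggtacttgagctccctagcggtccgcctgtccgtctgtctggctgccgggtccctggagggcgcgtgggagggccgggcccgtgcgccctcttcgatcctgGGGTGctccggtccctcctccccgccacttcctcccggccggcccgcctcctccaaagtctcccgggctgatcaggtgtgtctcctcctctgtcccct
TMPRSS11D, chr4:67884003-67884252, minus strand: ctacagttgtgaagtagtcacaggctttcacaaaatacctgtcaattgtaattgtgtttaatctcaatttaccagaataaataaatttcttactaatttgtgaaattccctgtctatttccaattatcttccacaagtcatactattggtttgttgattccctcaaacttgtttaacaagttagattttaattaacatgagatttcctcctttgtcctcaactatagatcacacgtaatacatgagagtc
TMPRSS11E, chr4:68447213-68447462, plus strand: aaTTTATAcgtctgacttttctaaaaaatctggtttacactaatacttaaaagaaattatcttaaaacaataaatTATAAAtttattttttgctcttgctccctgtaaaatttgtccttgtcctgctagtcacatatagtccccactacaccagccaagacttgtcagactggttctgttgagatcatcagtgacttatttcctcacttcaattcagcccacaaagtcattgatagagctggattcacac
The HPN window was 70.4% G and C with 10 CG dinucleotides, close to the median of 11 over all windows in CG number and above the median of 58% in G and C. It held 2 GC boxes, 41 and 29 bases before the start, the second overlapping a CACCC match. The SPINT1 windows were 80.4% and 70.4% G and C with 35 and 22 CG dinucleotides, and the first held 3 GC boxes. TMPRSS11D and TMPRSS11E were alike in having 31.6% and 34.4% G and C and 1 CG dinucleotide each, with no GC box. The window of TMPRSS11E had 2 matches to TATAAA, 248 and 175 bases before the start. AGAACA occurred in 1 of the 5 windows, the second of SPINT1, and TGANTCA and TGTTTAC in 0 of the 5. A match describes letters and does not show binding.

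The type II protease genes TMPRSS4, TMPRSS11D and TMPRSS11E were highest in vector libraries and lowest in T164A. TMPRSS4, a protease known for its high level in several carcinomas, was at 5.97, 6.12, 5.44 and 6.11 in T164A libraries, at 7.87, 8.26 and 8.47 (lowest, median and highest) in wild type and at 8.84, 9.55 and 9.73 in vector libraries. No groups overlapped. It changed by -3.45 in T164A (SE 0.16, limma adjusted p = 6.11e-16) and by -1.13 in wild type (SE 0.15, adjusted p = 4.92e-07) against vector libraries, and by -2.32 in T164A against wild type (SE 0.16, adjusted p = 2.4e-12).

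TMPRSS11D, the airway trypsin-like protease of squamous and respiratory epithelium, had the largest fall of the 9 in wild type. It was at 0.40, -0.66, -1.2 and 1.36 in T164A libraries, all below the level of 3 reads, at 2.69, 3.58 and 3.92 in wild type and at 4.95, 5.77 and 6.09 in vector libraries. The groups were again separate. Wild type was lower than vector libraries by a change of -2.15 (SE 0.37, limma adjusted p = 3.15e-05), a 4.44-fold difference, and T164A was at least 9.84-fold lower than vector (adjusted p = 5.16e-12) and at least 2.22-fold lower than wild type (adjusted p = 5e-08). These are small numbers, at an estimated 4.24 to 17.3 reads per wild-type library.

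TMPRSS11E, a related protease of stratified epithelium encoded in the same cluster, was at 1.07, 1.9, 1.21 and 1.47 in T164A libraries, at 4.49, 5.11 and 5.50 in wild type and at 5.12, 5.75 and 5.86 in vector libraries. T164A was at least 9.70-fold lower than vector (limma adjusted p = 3.24e-13) and at least 6.69-fold lower than wild type (adjusted p = 6.7e-12). Wild type and vector overlapped, and their difference of -0.54 (SE 0.24) missed the threshold (limma adjusted p = 0.0734). It passed under quantile normalization (-0.89, adjusted p = 0.00259), without vector replicate 2 (-0.63, adjusted p = 0.0457) and without wild-type replicate 16 (-0.63, adjusted p = 0.0495). At the same -0.54 it passed with genes filtered on the level of 3 reads (adjusted p = 0.0476), with low values set to that level (adjusted p = 0.0319) and with the compared groups fitted alone (adjusted p = 0.0355).

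The difference between TMPRSS11D and TMPRSS11E within a library, which compares libraries and not the genes' levels, was -2.52 to -0.69 in wild type and -0.20 to 0.29 in vector libraries, without overlap. That difference carries no test.

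ST14 and PRSS8, the matriptase and prostasin genes, stayed near the vector level in wild type and were reduced in T164A. ST14 was at 10.44, 10.21, 9.98 and 10.52 in T164A libraries, at 11.76, 11.87 and 11.95 in wild type and at 11.82, 12.01 and 12.22 in vector libraries. T164A lay below all other libraries, with changes against vector (-1.72, SE 0.08, limma adjusted p = 1.09e-15), a 3.30-fold fall, and against wild type (-1.58, SE 0.08, adjusted p = 9.1e-15). Wild type and vector overlapped, with a change of -0.14 (SE 0.07, adjusted p = 0.14) that was called without vector replicates 3, 4 and 6 (-0.24, adjusted p = 0.0404).

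PRSS8 was at 9.48, 9.21, 8.88 and 9.40 in T164A libraries, at 10.39, 10.57 and 10.79 in wild type and at 10.55, 10.73 and 10.91 in vector libraries. Its change in T164A was -1.49 against vector (SE 0.10, limma adjusted p = 3.1e-13) and -1.35 against wild type (SE 0.10, adjusted p = 2.94e-12). In wild type it differed from vector by -0.14 (SE 0.09, adjusted p = 0.208), within the overlap of the groups.

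The 2 inhibitor genes did not move alike in wild type. SPINT1 was at 10.74, 10.74, 10.28 and 10.68 in T164A libraries, at 11.999, 12.05 and 12.12 in wild type and at 12.20, 12.30 and 12.49 in vector libraries, with no overlap between groups. It was lower in T164A by a change of -1.69 (SE 0.07, limma adjusted p = 1.48e-16) and in wild type by a change of -0.25 (SE 0.07, adjusted p = 0.00274) against vector. The wild-type call was lost when close libraries were averaged (-0.31, adjusted p = 0.116) and under a minimum fold of 1.2 (adjusted p = 0.966). T164A was below wild type by a change of -1.44 (SE 0.07, adjusted p = 5.8e-15).

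SPINT2 was at 11.66, 11.67, 11.39 and 11.67 in T164A libraries, at 12.64, 12.88 and 12.93 in wild type and at 12.58, 12.67 and 12.91 in vector libraries. T164A was again the lowest, with changes of -1.10 against vector (SE 0.07, limma adjusted p = 3.58e-13) and -1.25 against wild type (SE 0.07, adjusted p = 3.87e-14). The difference between wild type and vector was 0.15 (SE 0.06, adjusted p = 0.0533). It was called under quantile normalization (0.31, adjusted p = 0.000179) and under array weights (0.19, adjusted p = 0.0018), and, at the same 0.15, with genes filtered on the level of 3 reads (adjusted p = 0.0427) and with the compared groups fitted alone (adjusted p = 0.0372). It was also called without vector replicate 5 (0.20, adjusted p = 0.0111), without wild-type replicate 14 (0.20, adjusted p = 0.00877), without T164A replicate 93 (0.15, adjusted p = 0.022) and without all 3 (0.24, adjusted p = 6.95e-06), but not without vector replicates 3, 4 and 6 (0.09, adjusted p = 0.406).

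**Figure D3:**
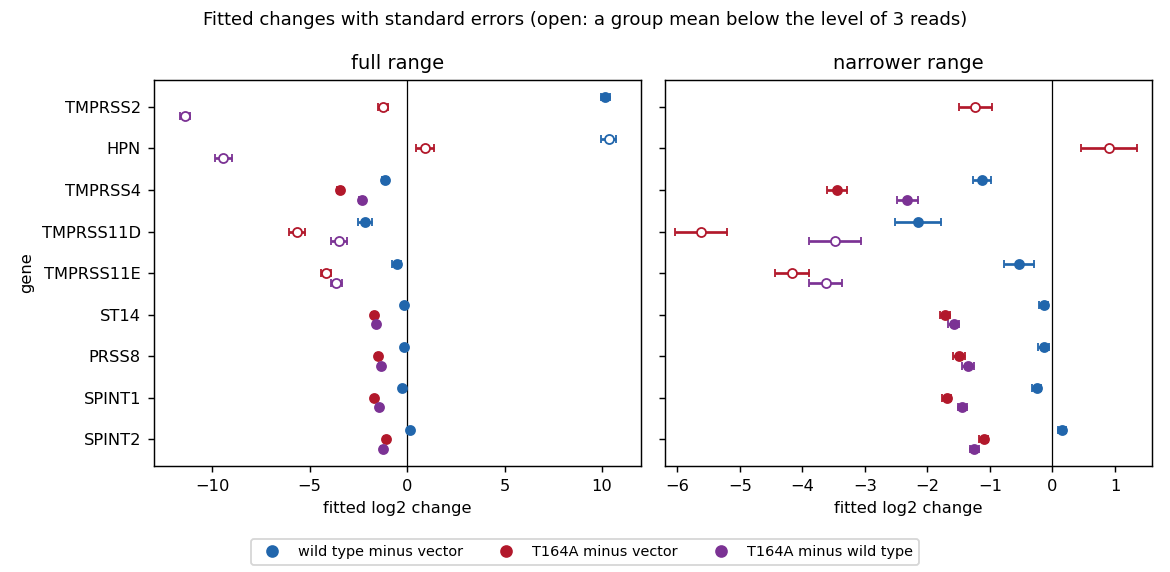
Fitted log2 change with its standard error for each gene in the 3 comparisons, over the full range (left) and a narrower one (right). Open points have a group mean below the level of 3 reads. All T164A minus wild type points are below 0, and wild type minus vector runs from -2.15 for TMPRSS11D to 10.15 for TMPRSS2 among the filled points.

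The difference of the log2 values of a protease gene and an inhibitor gene can be compared between groups, since a gene's length is the same in every library, but its size is no ratio of levels. SPINT1 minus SPINT2 was -1.11 to -0.92 in T164A, -0.87 to -0.63 in wild type and -0.46 to -0.35 in vector libraries, so that the 3 groups were separate and SPINT1 was lower relative to SPINT2 in both construct groups than in the vector. ST14 minus SPINT2 was likewise separate, at -1.47 to -1.14 in T164A, -1.10 to -0.80 in wild type and -0.76 to -0.62 in vector libraries. ST14 minus SPINT1 overlapped across groups, at -0.53 to -0.16, -0.24 to -0.14 and -0.38 to -0.18 in T164A, wild type and vector libraries. PRSS8 minus SPINT1 also overlapped, with means of -1.36, -1.46 and -1.57 in that order. PRSS8 minus SPINT2 was -2.50 to -2.17, -2.34 to -2.11 and -2.03 to -1.82, with only vector separate. PRSS8 minus ST14 was higher in T164A, at -1.12 to -0.96, than in wild type (-1.45 to -1.16) and vector libraries (-1.31 to -1.21). These differences are a description and carry no test.

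**Figure D4:**
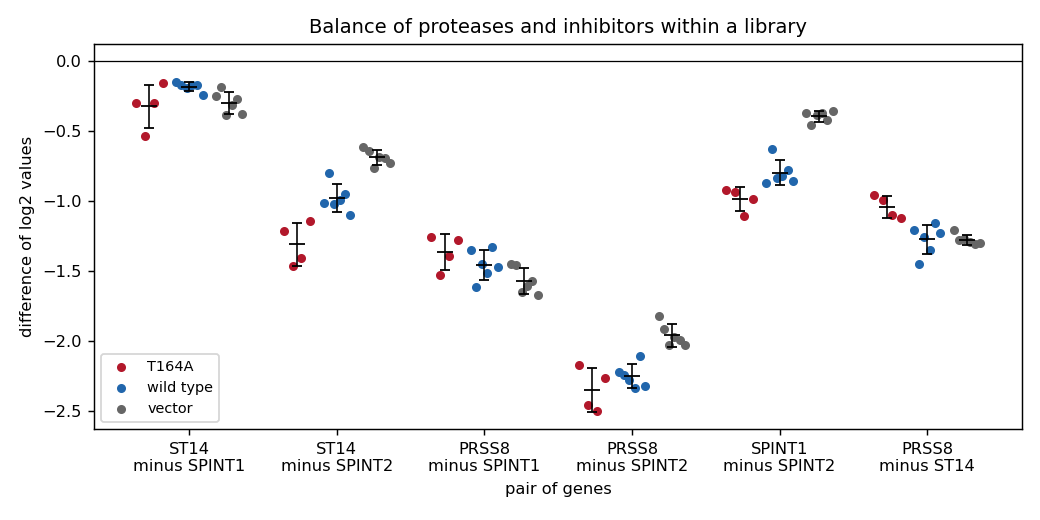
Difference of log2 values between pairs of genes within each library (points), with group mean and SD, for T164A, wild type and vector libraries. SPINT1 minus SPINT2 and ST14 minus SPINT2 separate the 3 groups, and ST14 minus SPINT1 does not. PRSS8 minus SPINT1 overlaps across groups, PRSS8 minus SPINT2 sets only vector apart, and PRSS8 minus ST14 sets only T164A apart.

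Other membrane-anchored serine proteases fell more often than they rose. Of 16 listed, 2 rose and 9 fell in T164A against vector, 1 rose and 7 fell in wild type against vector, and 2 rose and 7 fell in T164A against wild type (limma). Their median changes were -1.45, -0.52 and -0.97, with medians over all genes of 0.11, -0.05 and 0.08. In the same order, 37.1%, 21% and 35.1% of all genes were called higher, and 27.2%, 24.5% and 26.7% lower. TMPRSS13, a protease of stratified epithelium, was at 5.73 in T164A, 8.52 in wild type and 9.20 in vector libraries on average, lower by a change of -3.47 in T164A (SE 0.10, adjusted p = 3.6e-20) and of -0.68 in wild type (SE 0.09, adjusted p = 6.67e-07) against vector. TMPRSS11F, of the same gene cluster as TMPRSS11D, was at 0.20 in T164A, 5.04 in wild type and 6.08 in vector libraries. PRSS22 and PRSS27, which encode trypsin-like proteases, also fell in T164A, by changes of -2.34 (SE 0.12) and -1.63 (SE 0.13) against vector. PRSS27 was also the 1 gene of the list that rose in wild type (0.40, SE 0.12, adjusted p = 0.00685), singled out after its value was seen.

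Among 15 known substrates of these proteases, 3 rose and 9 fell in T164A against vector, 4 rose and 7 fell in wild type against vector, and 4 rose and 10 fell in T164A against wild type (limma). In that order, 37.1%, 21% and 35.1% of all genes were called higher, and 27.2%, 24.5% and 26.7% lower. Median changes of the list were -0.27, -0.27 and -0.59, with 0.11, -0.05 and 0.08 over all genes. FLG, whose profilaggrin product is processed downstream of matriptase and prostasin in mouse epidermis, was at 2.65 in T164A, 9.77 in wild type and 10.45 in vector libraries on average. The cell-surface protein genes CDCP1 and EPCAM fell in T164A against vector, by changes of -1.17 (SE 0.06, adjusted p = 9.87e-16) and -1.25 (SE 0.07, adjusted p = 5.98e-15), and so did LAMB3, a laminin chain, by a change of -1.67 (SE 0.09). In wild type, SCNN1G, a subunit of the epithelial sodium channel that prostasin activates, rose by 3.16 against vector (SE 0.33, adjusted p = 1.89e-08), MST1, the ligand of the receptor RON, rose by 0.79 (SE 0.11), and the urokinase gene PLAU fell by 0.81 (SE 0.07, adjusted p = 5.62e-10).

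Receptors and soluble enzymes on the same route made a shorter list. Of 9 measured, 2 rose and 1 fell in T164A against vector, 0 rose (0 at an unadjusted p below 0.05, limma) and 5 fell in wild type against vector, and 4 rose and 1 fell in T164A against wild type. In that order, 37.1%, 21% and 35.1% of all genes were called higher, and 27.2%, 24.5% and 26.7% lower. Median changes of the list were -0.05, -0.52 and 0.39, with 0.11, -0.05 and 0.08 over all genes. MET, the receptor of hepatocyte growth factor, fell in wild type by 0.52 (SE 0.08, adjusted p = 4.05e-06), and MST1R, which encodes RON, fell by 0.59 (SE 0.07, adjusted p = 6.81e-08) against vector. PLAT, the tissue plasminogen activator gene, rose in T164A by 3.51 against vector (SE 0.09, adjusted p = 8.01e-21), and the thrombin receptor gene F2R rose by 0.90 (SE 0.09, adjusted p = 7.1e-10).

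Other epithelial protease inhibitors moved mostly downward. Of 15 listed, 4 rose and 8 fell in T164A against vector, 1 rose and 9 fell in wild type against vector, and 4 rose and 7 fell in T164A against wild type (limma). In that order, 37.1%, 21% and 35.1% of all genes were called higher, and 27.2%, 24.5% and 26.7% lower. Median changes of the list were -0.94, -0.65 and -0.56, with 0.11, -0.05 and 0.08 over all genes. SPINK5, which encodes an inhibitor of epidermal proteases, was at 6.78 in T164A, 11.10 in wild type and 12.22 in vector libraries on average, a change of -5.44 in T164A against vector (SE 0.14, adjusted p = 4.6e-21). SLPI, a secreted inhibitor of neutrophil elastase, changed by -5.38 (SE 0.14, adjusted p = 2.72e-21) in T164A and by -1.26 (SE 0.12, adjusted p = 3.59e-09) in wild type against vector. The exception in wild type was TFPI, a Kunitz-type inhibitor of tissue factor, which was at 6.65 in T164A, 9.30 in wild type and 3.03 in vector libraries on average. It rose against vector by 3.62 in T164A (SE 0.18, adjusted p = 2.49e-15) and by 6.27 in wild type (SE 0.16, adjusted p = 2.07e-20). Squamous differentiation markers moved with these falls, with 13 of 13 lower in T164A and 11 of 13 lower in wild type against vector, and log2 summed levels of 9.76 to 9.88, 15.47 to 15.96 and 16.25 to 16.37 in T164A, wild type and vector libraries. Of 12 mesenchymal and neural markers, 11 rose in T164A against vector, with summed levels of 15.22 to 15.32 in T164A and 11.59 to 12.29 in vector libraries. The all-gene shares given above for the inhibitors apply to these markers as well. The part of either marker list in the changes of the 9 genes was not tested.

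The genes most like each member were those with the smallest root mean square difference over the 16 libraries, after each gene's own mean was removed. Only the 10785 or 10786 genes with a mean of at least 6 over all libraries were scored. Uncharacterised and non-coding symbols and the introduced gene were left out. HPN was below that mean, so it was not scored as a match for TMPRSS2. TMPRSS2 and HPN had FOLH1, the gene of prostate-specific membrane antigen, as nearest scored gene, at 0.98 and 0.78 log2 units, on SDs of 5.37 and 5.06 over all libraries. FOLH1 averaged 4.42 in T164A, 13.50 in wild type and 4.17 in vector libraries, so it reached the minimum mean through wild type. TMPRSS2 was the second nearest gene of HPN, at 1.08. With means of 2.04 in T164A, 13.42 in wild type and 3.27 in vector libraries, TMPRSS2 too reached the minimum mean only through wild type. ST14 was nearest to CASZ1, a zinc finger factor, at 0.09, and then to its own inhibitor gene SPINT1 at 0.10, on an SD of 0.75. SPINT1 was nearest to ESRP2, a splicing regulator of epithelial cells, at 0.09, with ST14 next. PRSS8 was nearest to OPLAH at 0.09, SPINT2 to ZSCAN18 at 0.08, TMPRSS4 to EDAR at 0.20, TMPRSS11D to the keratin gene KRT6B at 0.57 and TMPRSS11E to UCN2 at 0.34. Likeness over these libraries rests largely on the 3 group levels.

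Genes beside the members on the chromosome, in RefSeq order, were read as well. Of 16 measured nearest protein-coding neighbours, a set added after the members' values were seen, 8 were called in wild type against vector, where 45.5% of all genes were called, 3 of them in the direction of their called member and 1 opposite to it. In T164A, 13 of the 16 were called against vector, 8 in the direction of their called member and 4 opposite, and 13 against wild type, 8 in that direction and 5 opposite, where 64.4% and 61.8% of all genes were called. MX1 and RIPK4 flank TMPRSS2: MX1, an interferon-induced gene, changed by -0.50 in wild type against vector (SE 0.08, limma adjusted p = 1.18e-05) and RIPK4 by -0.16 (SE 0.09, adjusted p = 0.127), while TMPRSS2 rose by 10.15. UGT2B17, a steroid-conjugating enzyme gene that follows TMPRSS11E, was at -0.27 in T164A, 5.89 in wild type and 0.14 in vector libraries on average, higher in wild type than in vector by at least 3.59 on the log2 scale (adjusted p = 8.68e-11). TMPRSS11A, next to TMPRSS11D, changed with it, by -1.17 in wild type (SE 0.41, adjusted p = 0.0217) against vector, and was at 0.71 in T164A, 2.77 in wild type and 3.95 in vector libraries on average.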

How the data were processed

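Per the labels' protocols, poly-A RNA was made into TruSeq libraries and read on a HiSeq instrument. Tools named by the submitters' processing notes, with no order, are TopHat2 2.0.4, DESeq, Cufflinks 2.0.2, CASAVA 1.8.2 and the build GRCh37. The authors deposited log2 values in 21594 rows, and the sources used here do not state their transformation or the strand setting, so overlapping genes are uncertain. Of 304 symbols on several rows, the row with the highest mean was kept, leaving 20166.

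Above 11.5, 100% of the values, once raised from log2, lay within 0.05 of equal steps, which gave estimated reads and the level of 3 reads. Between 10 and 10.5 only 8.29% to 11.4% did, about the share that values unrelated to the steps would give. The level of 3 reads and the estimated reads of lower values are therefore extrapolated from values above 11.5. They are approximate, and no count test was run. A fold against a group mean below that level is a bound against the level over the group and covers counting error only.

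One limma fit (3.58.1, R 4.3.3, variance trend, 13 residual degrees of freedom) held all 16 libraries, with two-sided p-values adjusted over 20166 symbols at 0.05. It was also run on simulated data with independently drawn libraries. Since libraries here form close sets, that run cannot show how such sets affect the p-values. P-values measure the spread between libraries, which may be technical. Values are not per length, so levels of different genes are not compared. Named were all 9 members and, per list and comparison, up to 4 called genes with the smallest adjusted p. Others are marked. Members and lists were chosen with earlier results of these data known. Alternatives changed the normalization (quantile), the treatment of low values, the groups fitted, the library weights, the variance trend and the minimum fold (1.2), averaged close libraries, or left out each library. The introduced gene is not reported here.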

Additional observations from a re-analysis of the deposited data

Results flagged for a closer look

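Over the 9 genes and 3 groups, 27 sets of libraries were screened for a library far from the rest of its group, and 5 were marked, where chance marks about 1 in 20. HPN was at 9.71 in wild-type replicate 14, below the other wild-type libraries. SPINT2 was at 12.64 in the same library, also below the others. SPINT1 was at 10.28 and SPINT2 at 11.39 in T164A replicate 93, each below the other T164A libraries. SPINT2 was at 12.91 in vector replicate 5, above the other vector libraries. The 3 libraries are those that stood apart from their groups over all highly expressed genes, vector replicate 5 less clearly than wild-type replicate 14 and T164A replicate 93.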

How the results depend on the processing

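No paired analysis was possible because the groups share no replicate numbers. In wild type against vector, 4 to 7 of the 9 genes were called over all alternatives (5 in the reported fit), TMPRSS2, HPN, TMPRSS4 and TMPRSS11D in each. The genes whose call changed were TMPRSS11E, ST14, SPINT1 and SPINT2. In T164A against vector, 8 or 9 were called, and in T164A against wild type 9 under every alternative. Over all genes, 9183 were called in wild type against vector, 4091 under a minimum fold of 1.2 and 3821 with close libraries averaged. Over genes with a mean of at least 6, the median change shifted under quantile normalization by -0.17 in T164A against vector and by -0.14 against wild type. No member changed sign under any alternative, though HPN in T164A against vector came to 0 when low values were set to the level of 3 reads. Leaving out the 3 libraries that stand apart, or vector replicates 3, 4 and 6, was chosen after seeing the data, and each gave 6 called members in wild type and 9 in T164A against vector, HPN then being called with both means below the level of 3 reads. Low values are blurred in the deposited table, which limits TMPRSS11D, TMPRSS11E, HPN and TMPRSS2 outside wild type.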

Other observations

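Among the vector libraries, the membrane proteases differed between the close sets. TMPRSS4 was at 8.87 and 8.84 in replicates 1 and 2 and at 9.51 to 9.73 in the other vector libraries, and TMPRSS11D was at 4.99 and 4.95 in replicates 1 and 2 and at 5.71 to 6.09 in the others. TMPRSS2 was at 3.64, 3.95 and 3.65 in replicates 3, 4 and 6, and at 2.63, 3.03 and 2.73 in replicates 1, 2 and 5. KLK3 was split in the same way, at 3.76, 4.19 and 3.47 in replicates 3, 4 and 6 and at 0.01, 0.31 and 1.08 in replicates 1, 2 and 5. HPN was below the level of 3 reads in all 6, and ST14, PRSS8, SPINT1 and SPINT2 were highest in replicate 5. The libraries were grouped here by closeness over all highly expressed genes, and these differences were not tested.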
